A study of Mus musculus with 22 samples.

Results

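At the constitutive proteasome genes, no promoter window passed the test for a difference in H3K27ac between Kupffer cells of 3 inbred mouse strains. All 35 lay within 2-fold, and 8 windows over 1 kb from the start site of their assigned gene passed the test. Few windows of any gene passed, 1.61% to 3.58% of all promoter windows and 3.63% to 8.56% of all windows per strain pair. Of the 75 other member windows tested, 3 to 5 passed per pair. The members were every autosomal window of the H3K27ac count table whose assigned gene symbol began with Psma, Psmb, Psmc, Psmd or Psmg and a digit, without Psmb8, Psmb9 and Psmb10, the inducible subunits of the immunoproteasome. These were 160 of the 96381 windows, assigned to 38 genes. In the table of the F1 hybrid 373 of 217456 regions carried such symbols. Psmd10 lies on the X chromosome and its 2 windows were left out.

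H3K27ac, acetylation of histone H3 at lysine 27, marks active promoters and enhancers and was measured by ChIP–seq in Kupffer cells, which are the macrophages resident in liver. The cells came from male mice of 8 to 12 weeks. The sample labels give a control diet, while the count columns of the F1 hybrid name chow. Live CD45+ CD146- F4/80 high cells with intermediate CD11b were sorted after a digestion in the presence of the transcription inhibitor flavopiridol. A/J, BALB/cJ and C57BL/6J had 3 H3K27ac libraries each, and CB6F1/J had 3. CB6F1/J is the F1 hybrid of BALB/cJ and C57BL/6J, in which reads over a variant can be given to 1 parental allele. A/J and BALB/cJ had 3 ChIP input libraries each and C57BL/6J had 1. The strains are inbred, and the labels name no transgene. Signal from a sorted population cannot tell fewer acetylated cells from less acetylation per cell.

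The proteasome degrades proteins that carry ubiquitin chains. Its barrel-shaped 20S core is built from alpha subunits (Psma genes), which gate the entrance, and beta subunits (Psmb genes), 3 of which, Psmb5, Psmb6 and Psmb7, hold the proteolytic sites. The 19S cap consists of ATPases that unfold the substrate (Psmc genes) and of non-ATPase subunits that bind and remove ubiquitin (most Psmd genes), and dedicated chaperones (Psmg genes, Psmd5 and Psmd9) help the particle to assemble. In mammals the transcription factor Nfe2l1 raises these genes together when proteasome activity falls, through antioxidant response elements in their promoters. Macrophages use the proteasome in signalling and in antigen processing.

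By symbol, the 20S alpha ring had 43 windows of 7 genes, the 20S beta ring 21 of 7 genes, the 19S ATPases 24 of 6 genes, the 19S non-ATPases 39 of 11 genes and the chaperones 31 of 5 genes. Psma8, a subunit of the testis, had 1 window, and so had Psmc3ip, a meiotic recombination factor that shares only the start of its symbol with the ATPases. Of the 160 windows 40 were annotated as promoter, 55 as intronic and 56 as intergenic, and 77 lay over 10 kb from the start site of the gene. Windows were given to a gene by the nearest start site in the files, and for 30 of them another protein-coding start site was nearer in GENCODE. This held for 15 of the 18 windows of Psmg4, which lie in and around Slc22a23, and for 5 of the 7 windows of Psmd9, which lie at Wdr66. In 34 cases a window overlapped the one before it, so neighbouring windows share tags. A promoter window, the one nearest to the start site and within 1000 bp of it, was present for 35 genes by the distances in the files and absent for Psma2, Psma8 and Psmc1. For Psmc1 the start site used in the files differs from that of GENCODE, which lies 13 bp from the centre of the window listed at 2103 bp upstream. Distances of Psmc1 windows are given as the files list them.

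Promoter sequences of the members were looked up in RefSeq (GRCm38.p6, the mm10 assembly), from 250 bases before to 50 bases after the start site, which gave 34 promoters for 32 of the 40 symbols in both tables. The antioxidant response core TGACNNNGC was found on either strand in 5 of these promoters (14.7%), those of Psmb5, Psmb6, Psmd9, Psmd12 and Psmc6. It was found in 14.5% of the promoters of all genes with a promoter window and in 12.5% of all 31396 autosomal promoters. The 3 matches closest to the start site are shown because Psmb5 and Psmb6 encode catalytic subunits and Psmd9 had the lowest promoter acetylation. Each sequence runs 5′ to 3′ on the strand of the gene over 150 bases before the start site, with the match in capitals.

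Psmb5, chr14:54617996-54618145, minus strand: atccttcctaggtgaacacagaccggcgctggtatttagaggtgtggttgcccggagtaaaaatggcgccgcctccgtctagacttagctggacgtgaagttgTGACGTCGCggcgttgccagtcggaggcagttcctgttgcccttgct
Psmb6, chr11:70525207-70525356, plus strand: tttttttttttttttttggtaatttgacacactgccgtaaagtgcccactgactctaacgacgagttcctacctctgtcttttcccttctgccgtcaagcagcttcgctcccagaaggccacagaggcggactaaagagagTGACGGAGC
Psmd9, chr5:123228040-123228189, plus strand: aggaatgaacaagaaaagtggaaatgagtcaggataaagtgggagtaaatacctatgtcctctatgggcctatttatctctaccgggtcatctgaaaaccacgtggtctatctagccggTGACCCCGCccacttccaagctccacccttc

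The core recognised by ETS factors, CCGGAAG, was the motif of highest share. It stood on either strand in 14 of the 34 member promoters (41.2%), against 16.9% of the promoters of genes with a promoter window and 9.0% of all promoters. The promoters of Psmd11 and Psmd2, both of the 19S cap, and of the chaperone gene Psmg1 are shown as examples, with the match in capitals (CTTCCGG is the same core on the other strand).

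Psmd11, chr11:80428465-80428614, plus strand: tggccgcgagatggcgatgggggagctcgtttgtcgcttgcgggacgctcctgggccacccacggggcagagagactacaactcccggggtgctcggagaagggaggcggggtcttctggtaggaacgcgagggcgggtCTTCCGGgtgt
Psmd2, chr16:20651502-20651651, plus strand: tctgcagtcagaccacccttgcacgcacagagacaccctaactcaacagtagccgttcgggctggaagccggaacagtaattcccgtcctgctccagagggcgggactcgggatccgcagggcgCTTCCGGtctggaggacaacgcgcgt
Psmg1, chr16:95990961-95991110, minus strand: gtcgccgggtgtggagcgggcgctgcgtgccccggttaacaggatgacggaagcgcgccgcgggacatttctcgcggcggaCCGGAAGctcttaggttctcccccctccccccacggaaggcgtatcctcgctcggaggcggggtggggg

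The core of YY1, AAGATGG, was found in 17.6% of the member promoters, 6.82% of those of genes with a promoter window and 6.38% of all. The NRF1 core GCGCATGCG was found in 5.88% of the member promoters, 3.55% of those of genes with a promoter window and 1.74% of all. The CCAAT box (CCAAT) was found in 35.3%, 37.6% and 37.3% and the E-box (CACGTG) in 5.88%, 9.97% and 7.14% of the same 3 sets. No match of one motif in the member promoters overlapped a match of another. These shares describe letters in a window and were not tested.

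**Figure D1:**
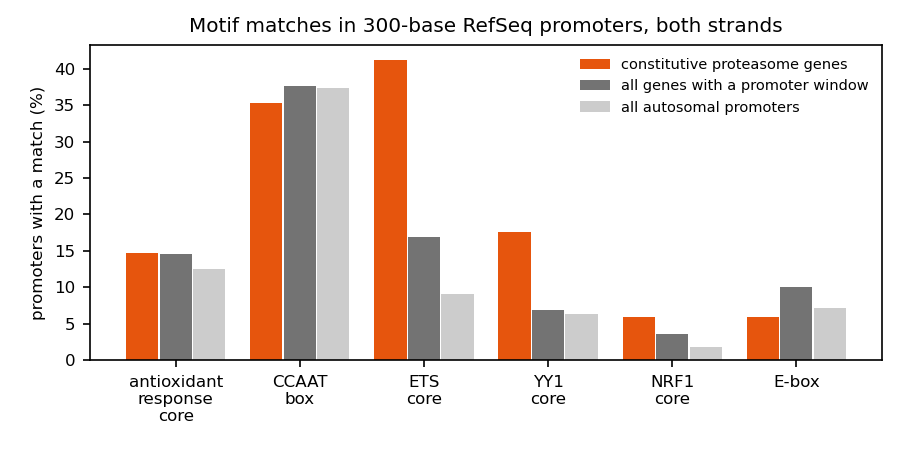
Share of promoters (%, y axis) with each of 6 motifs (x axis) among the 34 promoters of the constitutive proteasome genes, all genes with a promoter window and all autosomal promoters. The ETS core has 41.2% of the member promoters against 16.9% and 9.0%, the YY1 core 17.6% against 6.82% and 6.38%, and the antioxidant response core 14.7% against 14.5% and 12.5%.

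The 2 windows far from any member promoter carried the strain differences that were called under every alternative run, one 49291 bp downstream of the Psmd9 start site and one 36693 bp downstream of that of Psmg4. The middle 260 bases of each are shown on the plus strand of the reference, which is the C57BL/6J genome, with the bases of the region counted in the F1 hybrid in capitals. Neither stretch overlaps an annotated exon.

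Psmd9 downstream window, chr5:123277352-123277611, plus strand: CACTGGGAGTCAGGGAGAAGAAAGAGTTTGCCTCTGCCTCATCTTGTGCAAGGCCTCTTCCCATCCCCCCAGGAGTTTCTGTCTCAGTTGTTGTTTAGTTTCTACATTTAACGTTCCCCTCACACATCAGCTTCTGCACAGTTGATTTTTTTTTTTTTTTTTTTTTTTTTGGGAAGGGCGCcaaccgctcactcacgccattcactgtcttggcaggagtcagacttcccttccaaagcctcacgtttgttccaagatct
Psmg4 downstream window, chr13:34199528-34199787, plus strand: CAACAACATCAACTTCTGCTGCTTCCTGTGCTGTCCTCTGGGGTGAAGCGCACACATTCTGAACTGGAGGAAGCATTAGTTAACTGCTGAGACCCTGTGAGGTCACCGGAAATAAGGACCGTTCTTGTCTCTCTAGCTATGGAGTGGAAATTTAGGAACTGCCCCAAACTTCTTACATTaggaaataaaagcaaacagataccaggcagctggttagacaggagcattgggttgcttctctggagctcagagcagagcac

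The promoters were acetylated above the typical promoter of these cells. Levels are normalised counts, tags in a window of 1000 bp scaled to a common effective library of 7281272 tags. The 35 promoter windows had a median of 159 over the 9 libraries, against 110 for the promoter windows of 12157 autosomal genes, whose quartiles were 33.7 and 223. Of the 35, 31 lay over the median of all promoters and 10 over their upper quartile. In CPM (tags of a window scaled to the library's tags in all windows), the member promoters had a median of 21.9 in ChIP and 10.8 in input, and the ratio of ChIP to input had a median of 2.00 (0.651 to 7.15) against 1.52 for all promoters. The other member windows had a median level of 24.4 and a median ratio to input of 0.374, with 3.32 CPM in ChIP and 8.47 CPM in input. ChIP and input are each scaled to their own tags in windows. A ratio therefore compares a window with the other windows, and a low one does not show a level under background.

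**Figure D2:**
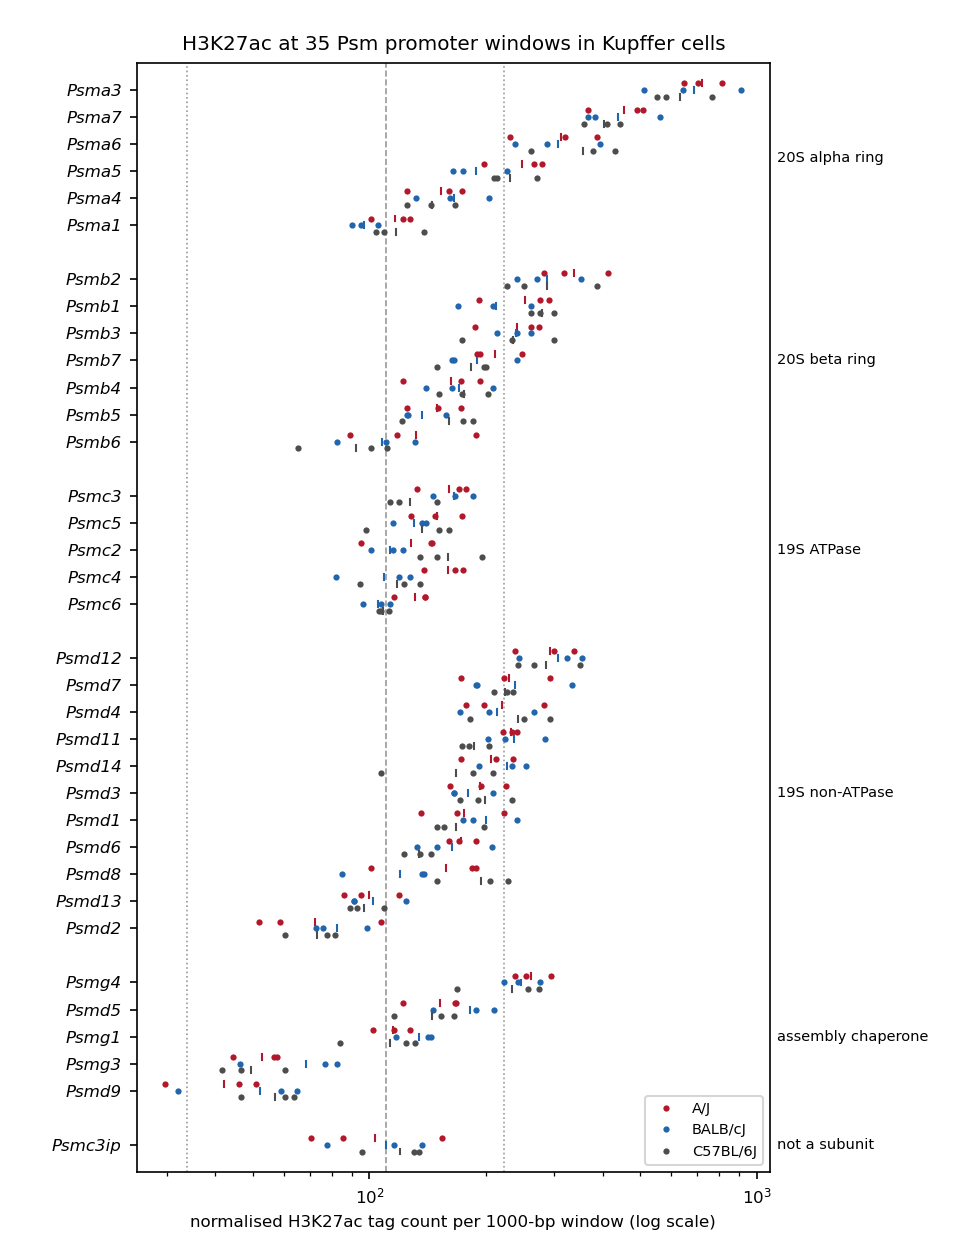
Normalised H3K27ac count (x axis, log scale) of the 35 promoter windows (rows, by role), with 1 point per library (A/J, BALB/cJ, C57BL/6J, 3 each). Psma3 stands highest with a mean of 682 and Psmd9 lowest with 50.4, and the points of the 3 strains lie over each other in most rows.

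The alpha ring had the highest promoter levels, with a median of 274 over 6 genes. Psma3 was the highest of all members, at percentile 99.7 of all promoters, with 705, 647 and 814 in A/J, 645, 513 and 913 in BALB/cJ and 582, 554 and 768 in C57BL/6J. The 3 strains overlapped, and the spread between libraries of BALB/cJ was wider than any gap between strain means. Psma7 (mean 432), Psma6 (325), Psma5 (222) and Psma4 (155) followed. Psma1 was the lowest of the ring, with 127, 101 and 122 in A/J, 90.3, 105 and 94.9 in BALB/cJ and 104, 109 and 138 in C57BL/6J, which overlapped in every pair. The window given to Psma2 lay 5726 bp downstream of the start site and had a mean of 7.78, and the window of the testis subunit Psma8 had 7.15, both under the mean of 16 required for a test.

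The beta ring had a median of 194 over 7 genes. Psmb5, the chymotrypsin-like subunit, had 150, 125 and 172 in A/J, 158, 126 and 125 in BALB/cJ and 185, 121 and 174 in C57BL/6J. Psmb6, the caspase-like subunit, had the lowest promoter of the ring, with 188, 89.0 and 118 in A/J, 131, 82.4 and 110 in BALB/cJ and 111, 65.2 and 101 in C57BL/6J. Psmb7, the trypsin-like subunit, had 190, 193 and 248 in A/J, 165, 163 and 241 in BALB/cJ and 200, 149 and 198 in C57BL/6J. The strains overlapped at all 3 catalytic subunits. The largest of their 9 strain differences was that of Psmb6, which was 0.53 (SE 0.27) on the log2 scale in A/J over C57BL/6J, with an adjusted p of 0.301. The structural subunit Psmb2 was the highest of the ring, with 282, 317 and 413 in A/J, 240, 270 and 351 in BALB/cJ and 251, 226 and 387 in C57BL/6J. Psmb1 (248), Psmb3 (238) and Psmb4 (169) lay between these.

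The 19S ATPases lay close together, between 115 and 151 with a median of 133 over 5 genes. Psmc3 had 133, 178 and 170 in A/J, 146, 185 and 166 in BALB/cJ and 113, 119 and 149 in C57BL/6J. Psmc6 had 116, 139 and 139 in A/J, 113, 96.1 and 107 in BALB/cJ and 112, 107 and 106 in C57BL/6J, so that all A/J libraries lay above those of the other strains. That difference was small, 0.30 (SE 0.22) over BALB/cJ with an adjusted p of 0.635 and 0.27 (SE 0.22) over C57BL/6J with 0.578. Psmc4 had 138, 166 and 174 in A/J, 81.9, 119 and 127 in BALB/cJ and 94.6, 135 and 123 in C57BL/6J, and its difference of 0.55 (SE 0.24) in A/J over BALB/cJ was the largest among the promoters of that pair and did not pass (adjusted p 0.279). With the replicate number as a block its adjusted p was 0.040, still under the 2-fold threshold. Psmc5 (139) and Psmc2 (133) completed the class by the distances in the files. The Psmc1 window at the GENCODE start site, which is not among the 35, stood above this range, with 238, 187 and 253 in A/J, 256, 323 and 318 in BALB/cJ and 224, 189 and 331 in C57BL/6J. BALB/cJ did not overlap A/J there, but the difference of -0.38 (SE 0.23) in A/J over BALB/cJ did not pass (adjusted p 0.509). The other pairs gave -0.14 (SE 0.23, adjusted p 0.827) in A/J over C57BL/6J and 0.25 (SE 0.23, adjusted p 0.605) in BALB/cJ over C57BL/6J.

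The 19S non-ATPases had a median of 190 over 11 genes. Psmd12, a subunit of the lid, had 338, 237 and 300 in A/J, 353, 243 and 324 in BALB/cJ and 266, 242 and 350 in C57BL/6J. Psmd2, a scaffold of the base, was lowest with 58.9, 107 and 51.7 in A/J, 72.6, 98.4 and 75.9 in BALB/cJ and 81.3, 60.5 and 77.5 in C57BL/6J. In both genes the strains overlapped. Psmd7 (230), the ubiquitin receptor Psmd4 (225), Psmd11 (218), the deubiquitinase Psmd14 (200), Psmd3 (190), Psmd1 (181), Psmd8 (157), Psmd6 (157) and Psmd13 (99.7) stood between them. The chaperones had a median of 121 over 5 genes. Psmg4 had 294, 237 and 253 in A/J, 242, 222 and 276 in BALB/cJ and 274, 168 and 257 in C57BL/6J. Psmd9 had 50.8, 29.7 and 45.9 in A/J, 59.1, 32.0 and 65.0 in BALB/cJ and 64.0, 46.6 and 60.5 in C57BL/6J. Its 6.84 CPM in ChIP and 10.5 CPM in input gave a ratio of 0.651, the lowest of the member promoters. Psmd5 (159), Psmg1 (121) and Psmg3 (57) lay between Psmg4 and Psmd9. Psmc3ip, which encodes no subunit, had 70.7, 154 and 85.4 in A/J, 77.7, 137 and 116 in BALB/cJ and 95.9, 130 and 134 in C57BL/6J. The promoter windows of Psmc2, Psmc5, Psmd13, Psma4 and Psmg3 also held the start site of another protein-coding gene, and the signal of the 2 genes cannot be told apart there.

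The study compared the strains pairwise to find regulatory elements that differ with genotype. All 9 libraries were fitted together with edgeR, and calls required an absolute log2 fold change over 1 together with an adjusted p under 0.05 (Benjamini-Hochberg, 60387 windows tested). Of the 160 member windows 110 passed the filter on low counts and were tested, all 35 promoter windows among them, and 50 did not pass. No label says which libraries came from separate mice, so that p-values measure the spread between these libraries.

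None of the 35 promoter windows was called in any pair. All 35 lay within 2-fold in every pair. In A/J over BALB/cJ their log2 fold changes ran from -0.31 to 0.55 and 1 had an unadjusted p under 0.05, where 1.61% of all promoter windows were called. In A/J over C57BL/6J they ran from -0.39 to 0.53 and 0 had such a p, where 2.75% of all promoter windows were called. In BALB/cJ over C57BL/6J they ran from -0.68 to 0.48 and 2 had such a p, where 3.58% of all promoter windows were called. DESeq2 also called 0 of the 35 in each pair. The widest promoter difference was that of Psmd8, a lid subunit, with 137, 84.7 and 138 in BALB/cJ and 205, 149 and 228 in C57BL/6J. At -0.68 (SE 0.26) in BALB/cJ over C57BL/6J it missed the threshold with an adjusted p of 0.094. With the replicate block its difference was -0.70 (adjusted p 0.0023) and that of Psmc2 -0.51 (adjusted p 0.042), both short of 2-fold.

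Over all tested member windows, 3 of 110 were called in A/J over BALB/cJ, where 3.63% of all windows were called (1.40% higher and 2.23% lower in A/J), and all 3 were lower in A/J. In A/J over C57BL/6J 5 of 110 were called, 2 higher and 3 lower in A/J, against 7.09% of all windows (3.16% higher and 3.93% lower). In BALB/cJ over C57BL/6J 3 of 110 were called, 1 higher and 2 lower in BALB/cJ, against 8.56% of all windows (4.46% higher and 4.10% lower). The median log2 fold change of the members was 0.08, -0.01 and -0.10 in these 3 pairs, in the same order, and that of all windows 0.01, -0.01 and -0.01. The pairs share libraries and are not independent. Same-numbered libraries of the strains varied together, and with a replicate block the members called were 3, 8 and 8. The additional windows belonged to Psmd9, Psma1, Psmd8 and Psma6.

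**Figure D3:**
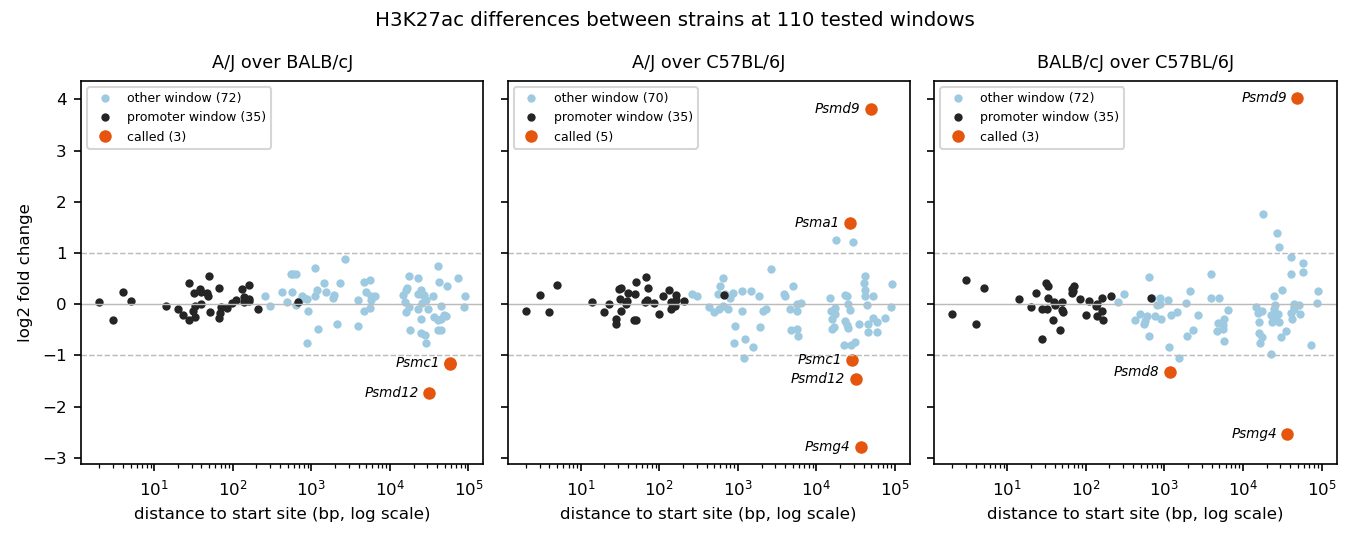
Log2 fold change (y axis) of the 110 tested member windows against their distance from the start site (x axis, log scale) in the 3 strain pairs, with promoter windows, other windows and called windows marked apart. The promoter windows stay between -0.68 and 0.55, and the called windows, which reach 4.02 and -2.79, lie over 1 kb from the start site of their assigned gene.

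The 2 largest differences lay at windows given to chaperone genes but inside other genes. The window 49291 bp downstream of the Psmd9 start site (chr5:123276981-123277981) lies in Wdr66, 647 bp from a start site of that gene. It had 50.8, 14.8 and 37.5 in A/J, 34.6, 41.2 and 54.0 in BALB/cJ and 0, 6.99 and 2.52 in C57BL/6J. Every library of A/J and BALB/cJ lay above every library of C57BL/6J. The difference was 3.81 (SE 0.58) in A/J over C57BL/6J with an adjusted p of 4.7e-05 and 4.02 (SE 0.58) in BALB/cJ over C57BL/6J with 1.9e-05, and -0.21 in A/J over BALB/cJ with 0.886. The ChIP level of this window was low, at 4.66 CPM in A/J, 5.93 CPM in BALB/cJ and 0.457 CPM in C57BL/6J, beside 9.14, 7.52 and 3.43 CPM in the inputs of the same strains. The C57BL/6J input rests on 2 tags of 1 library, and the part of input in the ChIP difference was not tested. The promoter of Psmd9 itself showed -0.39 (SE 0.30) in A/J over C57BL/6J and -0.09 (SE 0.29) in BALB/cJ over C57BL/6J, with adjusted p of 0.546 and 0.908.

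The window 36693 bp downstream of the Psmg4 start site (chr13:34199157-34200157) lies in an intron of Slc22a23, an organic ion transporter family gene, and ran the other way. It had 5.15, 11.9 and 9.06 in A/J, 11, 13.7 and 5.84 in BALB/cJ and 46.6, 51.2 and 64.9 in C57BL/6J. All 3 libraries of C57BL/6J stood above the 6 others. The difference was -2.79 (SE 0.41) in A/J over C57BL/6J with an adjusted p of 3.2e-05 and -2.54 (SE 0.41) in BALB/cJ over C57BL/6J with 7.9e-05. Input had 9.53 CPM in A/J (5.64 to 12.8), 7.55 CPM in BALB/cJ and 5.14 CPM in C57BL/6J, the last from 3 tags of 1 library, and its part in the difference was not tested. Another window of this gene, 53851 bp downstream of the Psmg4 start site, had 2.94, 2.97 and 2.59 in A/J, 1.69, 4.58 and 2.19 in BALB/cJ and 18.7, 37.3 and 15.7 in C57BL/6J, and its mean was too low for the test. It was picked after its values were seen. No tested window given to Psmg4 was called apart from that at 36693 bp. Those at 24774 and 25582 bp downstream differed by -0.10 and -0.01 in BALB/cJ over C57BL/6J. The promoter of Psmg4 differed by 0.16 (SE 0.22) in A/J over C57BL/6J and 0.07 (SE 0.22) in BALB/cJ over C57BL/6J, with adjusted p of 0.783 and 0.900.

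The only called window inside the body of a member gene belonged to Psmd8. It lies in an intron 1182 bp downstream of the start site in the files and 470 bp from another start site of Psmd8 in GENCODE (chr7:29178991-29179991). It had 65.5, 23.7 and 49.2 in A/J, 59.1, 13.7 and 41.6 in BALB/cJ and 123, 60.5 and 121 in C57BL/6J. All C57BL/6J libraries were above all BALB/cJ libraries. The difference was -1.33 (SE 0.36) in BALB/cJ over C57BL/6J with an adjusted p of 0.018, and -1.06 (SE 0.36) in A/J over C57BL/6J with 0.074. With the block the second was -1.16 and was called (adjusted p 1.4e-04), as was the overlapping window at 1546 bp in BALB/cJ over C57BL/6J (-1.19, adjusted p 0.0040). The call in BALB/cJ over C57BL/6J was lost without BALB/cJ replicate 3, C57BL/6J replicate 1 or C57BL/6J replicate 3, with differences of -1.34 to -1.19 and adjusted p of 0.080 to 0.121.

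Upstream of Psmc1, an ATPase of the base, 3 windows were called lower in A/J, none of them against both other strains. The window at 58958 bp upstream (chr12:100052873-100053873), in an intron of the potassium channel gene Kcnk13, had 59.6, 44.5 and 47.2 in A/J, 141, 96.1 and 102 in BALB/cJ and 68.0, 60.5 and 65.5 in C57BL/6J. A/J was lowest and BALB/cJ highest, with no overlap between any strains. A/J over BALB/cJ was -1.15 (SE 0.25, adjusted p 0.0065), and BALB/cJ over C57BL/6J was 0.81 (SE 0.25, adjusted p 0.037), under the 2-fold threshold. A/J over C57BL/6J was -0.34 (SE 0.26, adjusted p 0.549) and did not pass. The window at 58505 bp upstream overlaps the one at 58958 bp. It had 52.3, 23.7 and 29.8 in A/J, 117, 66.4 and 65.0 in BALB/cJ and 65.3, 39.6 and 54.8 in C57BL/6J. Its difference was -1.17 (SE 0.32, adjusted p 0.034) in A/J over BALB/cJ. In A/J over C57BL/6J it was -0.54 (SE 0.33, adjusted p 0.405), with overlap, and did not pass. A further window at 28528 bp upstream (chr12:100083303-100084303) had 95.7, 41.5 and 81.5 in A/J, 182, 114 and 92.7 in BALB/cJ and 196, 128 and 167 in C57BL/6J. Here A/J lay below C57BL/6J without overlap, at -1.09 (SE 0.29, adjusted p 0.014). A/J overlapped BALB/cJ, and that difference of -0.76 (SE 0.29, adjusted p 0.177) did not pass. Without A/J replicate 3 or BALB/cJ replicate 1 the 2 windows farthest upstream were not called (adjusted p 0.060 to 0.295), with differences of -1.07 and -0.95 in the first and -0.98 and -0.81 in the second, and the second was also not called without A/J replicate 2 (-1.04). The window at 28528 bp was not called without A/J replicate 2 (-0.90), C57BL/6J replicate 1 (-0.96) or C57BL/6J replicate 3 (-1.08), with adjusted p of 0.049 to 0.088.

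A pair of intergenic windows was called at low counts. The window 31520 bp downstream of the Psmd12 start site (chr11:107510548-107511548) had 5.89, 11.9 and 5.82 in A/J, 22.8, 22.9 and 22.6 in BALB/cJ and 16, 21.0 and 19.5 in C57BL/6J. A/J was below both other strains, by -1.74 (SE 0.44, adjusted p 0.021) against BALB/cJ and -1.46 (SE 0.46, adjusted p 0.047) against C57BL/6J. The first call was lost without A/J replicate 1 or 3 (-1.62 and -1.58, adjusted p 0.123 to 0.165). The second was lost with DESeq2, library totals, no filter or without any of 4 libraries, A/J replicates 1 and 3 and C57BL/6J replicates 1 and 2. In these runs it was -1.55 to -1.29 (adjusted p 0.064 to 0.216). The mean of this window was 16.5, close to the filter of 16. The first difference was not tested without BALB/cJ replicate 1 or 3, nor the second without C57BL/6J replicate 3, so neither was called there. The window 26830 bp upstream of Psma1 (chr7:114302446-114303446) had 25.8, 26.7 and 29.8 in A/J, 18.6, 20.6 and 32.1 in BALB/cJ and 6.66, 21.0 and 5.67 in C57BL/6J. It was higher in A/J than in C57BL/6J by 1.58 (SE 0.47, adjusted p 0.035) and lost its call with DESeq2, library totals or without A/J replicate 1, A/J replicate 3, C57BL/6J replicate 1 or C57BL/6J replicate 3 (1.14 to 1.62, adjusted p 0.057 to 0.312). C57BL/6J replicate 2, one of the libraries of lowest depth, lay close to the other strains at this window. With the block it was also called in BALB/cJ over C57BL/6J (1.48, adjusted p 0.0083).

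**Figure D4:**
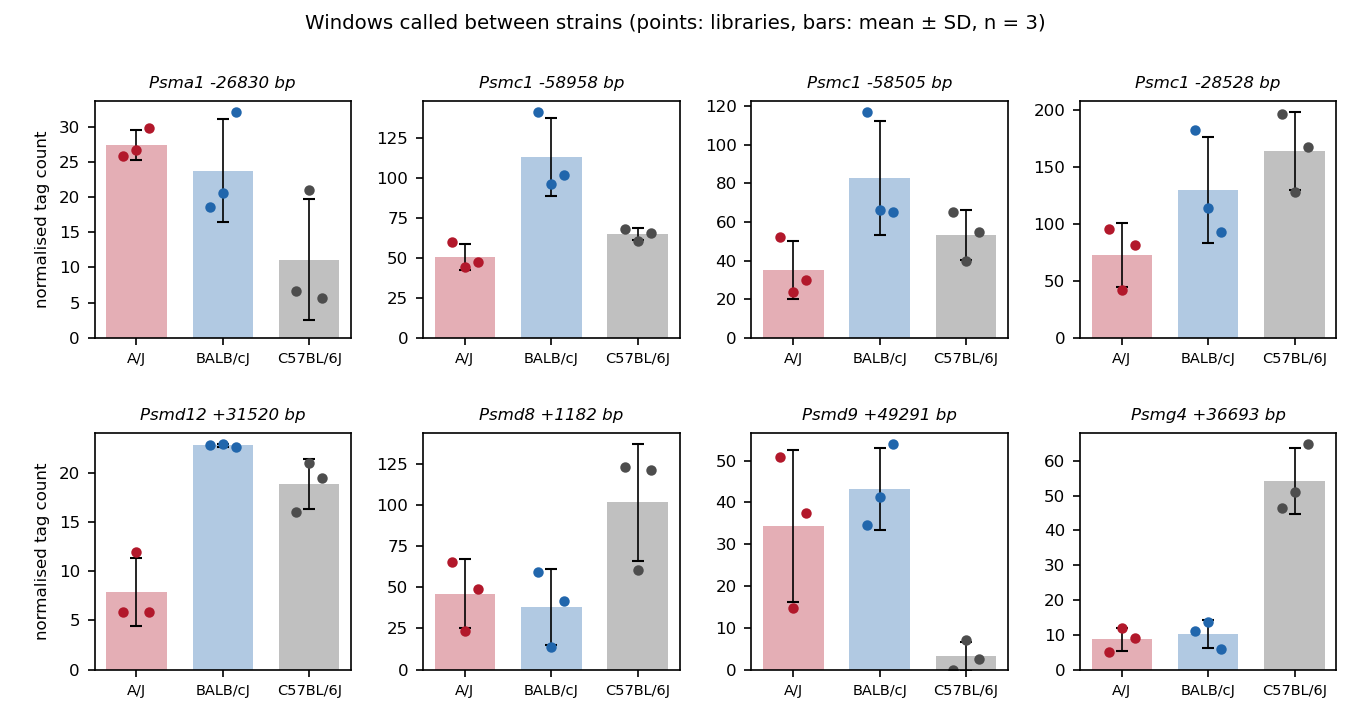
Normalised H3K27ac counts (y axis) of the 8 called windows, 1 panel each, with the 3 libraries per strain (A/J, BALB/cJ, C57BL/6J) as points and bars of the strain mean ± SD (n = 3). The Psmd9 window at 49291 bp is near 0 in C57BL/6J and the Psmg4 window at 36693 bp is high only there, with 46.6 to 64.9 against 5.15 to 13.7 in the other strains.

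Other windows came near the threshold, were called with the block or had 1 of the 3 lowest p of a direction. The window 22619 bp downstream of the Psma6 start site had 58.3, 82.4 and 35.1 in BALB/cJ and 128, 90.8 and 108 in C57BL/6J, a difference of -0.98 (SE 0.28) with an adjusted p of 0.024 that passed 2-fold with the block (-1.04), without BALB/cJ replicate 2 (-1.24), without C57BL/6J replicate 2 (-1.08) and without replicate 2 of each strain (-1.36). A/J had 57.4, 65.3 and 67.9 there. The window 40490 bp upstream of Psma1 had 58.3, 68.7 and 78.1 in BALB/cJ and 36.0, 41.9 and 32.1 in C57BL/6J, at 0.93 (SE 0.28, adjusted p 0.032), which passed 2-fold without BALB/cJ replicate 1 (1.05) or C57BL/6J replicate 2 (1.02), and 41.2, 44.5 and 56.3 in A/J. At Psmd9 the window 29154 bp downstream had 35.3, 17.8 and 33.6 in A/J, 32.1, 18.3 and 32.9 in BALB/cJ and 17.3, 11.6 and 11.3 in C57BL/6J. It was above C57BL/6J in all libraries of A/J and BALB/cJ, with 1.21 (SE 0.40, adjusted p 0.059) in A/J and 1.12 (SE 0.40, adjusted p 0.074) in BALB/cJ, and both were called with the block (1.21, adjusted p 0.013, and 1.14, adjusted p 0.019). A window 18011 bp upstream of Psma1 had 8.83, 53.4 and 24.6 in A/J, 27, 50.4 and 31.4 in BALB/cJ and 16, 18.6 and 2.52 in C57BL/6J. It was called with the block in A/J over C57BL/6J (1.27, adjusted p 0.049) and in BALB/cJ over C57BL/6J (1.81, adjusted p 0.0017), where the fit without it gave 1.25 (SE 0.65, adjusted p 0.314) and 1.76 (SE 0.63, adjusted p 0.082). In the body of Psma5 the overlapping windows at 642 bp and 1129 bp had 247, 294 and 398 and 185, 154 and 290 in A/J, against 177, 183 and 263 and 111, 112 and 165 in BALB/cJ. Their differences of 0.59 and 0.71 in A/J over BALB/cJ did not pass, with adjusted p of 0.279 and 0.223. C57BL/6J was as high as A/J, with 266, 242 and 449 at 642 bp and 173, 168 and 348 at 1129 bp. BALB/cJ over C57BL/6J gave -0.63 (SE 0.26, adjusted p 0.132) and -0.84 (SE 0.29, adjusted p 0.062), and neither passed.

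The F1 hybrid asks whether the alleles of BALB/cJ and C57BL/6J differ when they share a nucleus. Few member regions could answer. The regions are 200 bp wide, and only reads that map without mismatch and span a variant count toward an allele. In the F1 results an animal means 1 CB6F1/J library, since no label says which libraries came from separate mice. Of the 373 member regions 311 (83.4%) had no allelic tag in any animal, against 80.9% of all regions, although 302 of the 311 held reads. The other 62 carried some, and 11 regions of 7 genes passed the filter and were tested. None of the 11 was called, where 6.54% of 4467 regions were called, and DESeq2 also called 0. Both alleles come from 1 animal, and with the animal as a block edgeR called 0 of all 4467 regions, 782 of them with an unadjusted p under 0.05, so that the 6.54% rests on the fit without the block. None of the 11 had an unadjusted p under 0.05. Their log2 fold changes of the BALB/cJ over the C57BL/6J allele ran from -0.42 to 0.79, with a median of 0.12 against 0.01 for all regions, and 6 were higher and 5 lower on the BALB/cJ allele. The region 40 bp from the Psmg4 start site had 19, 51.5 and 57.5 tags on the BALB/cJ allele and 38.5, 56 and 69 on the C57BL/6J allele, lower on BALB/cJ in all 3 animals, with -0.36 (SE 0.36, adjusted p 0.794). That at 590 bp in the same gene had 20, 31.5 and 14 tags on the BALB/cJ allele and 11, 18.5 and 10 on the C57BL/6J allele, higher on BALB/cJ in all 3 animals, with 0.79 (SE 0.52, adjusted p 0.578). At the promoter of the catalytic subunit Psmb5, the BALB/cJ allele had 13, 18.5 and 25 tags and the C57BL/6J allele 7, 24.5 and 16.5, with 0.36 (SE 0.52, adjusted p 0.928). The standard errors of the 11 regions were 0.36 to 0.61 on the log2 scale. All 11 differences were under the 2-fold threshold, so that none could be called whatever its p. The largest, 0.79, had an SE of 0.52 and an adjusted p of 0.578. Without that threshold a difference of such a size could still be missed at this depth.

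The strain difference and the allele difference were set against each other in 1 fit at the 9 member windows of 5 genes with enough tags in both tables. None was called, where 2.05% of 3856 windows were called, and none had an unadjusted p under 0.05. None of the 9 was among the 8 windows called between strains, and their SEs were 0.43 to 0.60. The comparison therefore cannot say whether strain and allele differences agree where strains differ. The lowest adjusted p was 0.611, at the window 16024 bp upstream of Psma1. The median of strain minus allele difference was -0.20 for the members and -0.13 for all windows. The Psma1 windows 16024 and 15563 bp upstream shared the same allelic tags. So did those 38 bp upstream and 569 bp downstream, so that the 9 windows are not independent.

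At 4 of the 8 called windows the F1 gave allelic tags. The Psmd9 window at 49291 bp had 2, 9.5 and 7.5 tags on the BALB/cJ allele and 0, 0 and 0.5 on the C57BL/6J allele, and the BALB/cJ allele was higher in 3 of 3 animals, as the BALB/cJ strain was. The Psmg4 window at 36693 bp had 0, 2.5 and 0 tags on the BALB/cJ allele and 5.5, 12.5 and 11.5 on the C57BL/6J allele, higher on the C57BL/6J allele in 3 of 3 animals, as in that strain. Both were under the filter and were not tested. At the Psmd8 window at 1182 bp the BALB/cJ allele had 15.5, 33 and 9.5 tags and the C57BL/6J allele 22, 60.5 and 29.5, lower on BALB/cJ in 3 of 3 animals. Summed over the window this was -0.85 (SE 0.43) with an adjusted p of 0.340, which did not pass. The Psma1 window at 26830 bp had 8.5, 15.5 and 2 tags on the BALB/cJ allele and 0.5, 2 and 5.5 on the C57BL/6J allele, higher on BALB/cJ in 2 of 3 animals, and was not tested. The 3 windows of Psmc1 and the window of Psmd12 had no allelic tag.

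**Figure D5:**
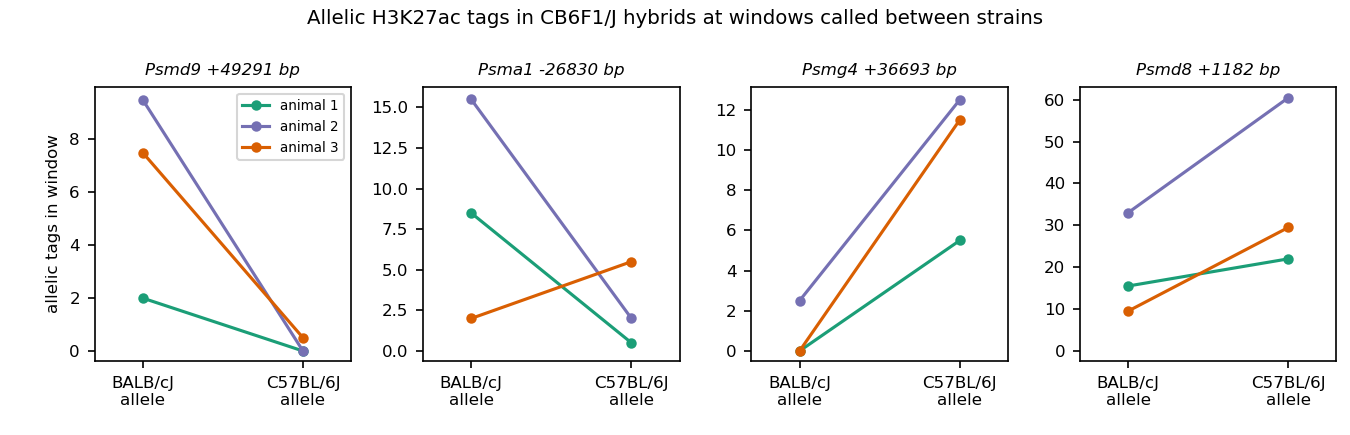
Allelic H3K27ac tags of the BALB/cJ and C57BL/6J alleles in the 3 CB6F1/J libraries, at the 4 called windows that had such tags. Each library, named animal in the legend, has 1 line (y axis, tags in the window, and x axis, allele). The Psmd9, Psmg4 and Psmd8 windows keep 1 order of the alleles in all 3 libraries, and the Psma1 window in 2 of 3.

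Other genes of the pathway were taken as a list of 26 symbols, among them the inducible subunits, activators, deubiquitinases, ubiquitin genes and the factors that regulate proteasome genes. Of these 23 had windows, 167 in all, and 130 were tested. The called windows were 2 in A/J over BALB/cJ (1 higher, 1 lower in A/J), 1 in A/J over C57BL/6J (lower in A/J) and 8 in BALB/cJ over C57BL/6J (4 higher, 4 lower in BALB/cJ), with medians of 0.08, 0.05 and -0.05, where 3.63%, 7.09% and 8.56% of all windows were called. None of their 22 tested promoter windows was called by edgeR or DESeq2 in any pair, while 3, 3 and 4 had an unadjusted p under 0.05, as did 8.18%, 11.6% and 12.4% of all promoter windows. Only the window nearest each start site counts here, and further windows within 1 kb of the start sites of Nfe2l1 and Psme4 were called. A window of Nfe2l1, the factor that raises proteasome genes, 583 bp upstream of its start site had 22.1, 29.7 and 34.9 in A/J and 5.07, 13.7 and 9.49 in BALB/cJ, and was higher in A/J by 1.73 (SE 0.44, adjusted p 0.019). Of the 8 windows in BALB/cJ over C57BL/6J 5 belonged to Ddi2, the protease that activates this factor, and went both ways, from -1.32 to 1.73. The Ddi2 windows at 1269 and 2095 bp downstream overlap and share tags, and so do those at 8411 and 8151 bp upstream. Psme4, which encodes an activator of the core, was higher in BALB/cJ at 494 bp upstream, with 237, 250 and 367 in BALB/cJ and 140, 130 and 151 in C57BL/6J, by 1.02 (SE 0.23, adjusted p 0.0032). The promoter window of Psme4, which overlaps it, differed by 0.60 (SE 0.22, adjusted p 0.083) and did not pass. The immunoproteasome gene Psmb9 had a window 6634 bp from its start site that was lower in BALB/cJ by -2.04 (SE 0.40, adjusted p 8.6e-04).

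The libraries differed in depth. Replicate 2 of each strain held 2291218 to 2960753 tags in windows and the other 6 libraries 5464518 to 12980348, and the allele columns held 181017 to 400060. Of 10 Kupffer cell markers 9 had an autosomal promoter window and 8 of these lay over the median of all promoters, with a summed level of 1519 to 1781 in A/J, 1538 to 1743 in BALB/cJ and 1562 to 2119 in C57BL/6J. Of 25 markers of hepatocytes, endothelial, stellate, B and T cells and neutrophils 4 had a promoter window. The neutrophil genes S100a8 and Mmp8 summed to 20.8 to 36.2 in A/J, 46.4 to 68.7 in BALB/cJ and 15.7 to 32.6 in C57BL/6J, without overlap between BALB/cJ and the others, and Ly6g and S100a9 had none. The mean of BALB/cJ was also highest at the 2 Psmc1 windows farthest upstream (113 and 82.6), the Psmd12 window at 31520 bp (22.8) and the Psmd9 window at 49291 bp (43.3), and the part of neutrophils at these windows was not tested.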

How the data were processed

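H3K27ac ChIP–seq was analysed in 9 strain libraries, 7 inputs and 3 CB6F1/J libraries. Per the study's methods, the authors mapped reads with Bowtie2 to the genome of each strain, moved positions to mm10 with MMARGE and used HOMER to count tags in windows, 1000 bp wide, centred on merged peaks of accessible chromatin. Versions are not given in the sources used here. The deposited values are raw counts in replicates 1 and 3 of each strain, and expected counts in steps of 0.5, whose origin is not stated, in replicate 2, the inputs and the F1 columns; these were rounded to whole counts. The deposited F1 regions are 200 bp wide, and the F1 inputs were not used.

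edgeR 4.0.16 (R 4.3.3; quasi-likelihood, robust, TMM) was run on windows with a mean normalised count over 16. SE was taken as |log2 fold change| / √F. Self-tests on simulated data recovered known changes. DESeq2 1.42.0, other scalings, no filter, left-out libraries and a replicate block were alternatives. The 9 same-numbered pairs of strain libraries correlated at 0.227 to 0.414 after removal of strain means, and the 3 allele pairs, each from 1 animal, at 0.168 to 0.182, so that the numbers were taken to pair them. A window was joined to the F1 region whose midpoint was nearest, within 500 bp.

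Values of every library are given for called windows, the 3 windows of lowest p per direction and pair, catalytic subunits, and the highest and lowest promoter of each role. The members and lists were chosen with earlier results of these data known. Promoter sequences are from RefSeq, and other start sites from GENCODE.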

Additional observations from a re-analysis of the deposited data

How the results depend on the processing

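The Psmd9 window at 49291 bp and the Psmg4 window at 36693 bp were called in both pairs with C57BL/6J under every alternative run, and no named difference changed sign after being called. In A/J over BALB/cJ 3 member windows were called, and 0 to 3 when 1 library was left out, with 0 without A/J replicate 3 and 0 without BALB/cJ replicate 1 (edgeR; 9 member windows had an unadjusted p under 0.05 with all libraries). In A/J over C57BL/6J the 5 calls became 3 with library totals, 3 with DESeq2 and 8 with the replicate block, and 2 to 6 when 1 library was left out. In BALB/cJ over C57BL/6J the 3 calls became 5 with no count filter, 8 with the replicate block, 7 at any fold change, and 2 to 8 when 1 library was left out. Without replicate 2 of each strain, an alternative chosen after seeing the data because these libraries had the lowest depth, they became 7. The medians of the members moved by less than the spread between libraries under every alternative, but not all kept their sign. That of A/J over BALB/cJ went from 0.08 to -0.01 without A/J replicate 3. The allelic median of 0.12 became -0.05 with no count filter, -0.08 without CB6F1/J replicate 1 and 0.21 without CB6F1/J replicate 3. None of the 35 promoter windows was called under any alternative. In the F1 the animal as a block left 0 member regions called, and over all regions it left 0 of 4467 with edgeR, against 292 without the block and 326 with DESeq2, while 782 had an unadjusted p under 0.05. The strain minus allele difference stayed at 0 member calls. The windows that the block added are named with their values above, and it ended no member call. The causes of these changes were not tested. The allelic results are limited by reads over variants, since 311 of 373 member regions had no allelic tag although 302 of these held reads. Low windows that rest on a few tags in C57BL/6J input cannot be scaled to it.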
